A study of Mus musculus with 12 samples.

Results

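The myosin heavy chains are the motor subunits of conventional myosin, and 10 of their genes were followed through the differentiation of mouse myoblasts with and without silencing of Bach1. They were taken by gene symbol, as all probes of Myh1, Myh2, Myh3, Myh4, Myh6, Myh7, Myh8, Myh9, Myh10 and Myh11, which are 10 of the 27306 genes named on the array. The choice was made with earlier results of these data known. These genes had 30 probes, and 20 probes of 9 members entered the tests because in some condition all 3 arrays gave a signal well above background. The other 10 probes, which include every probe of Myh2, are given by their signals or by the number of arrays on which they were detected. All samples were C2C12 cells, a myoblast line derived from the muscle of C3H mice, which leave the cell cycle and fuse into myotubes when serum is withdrawn. The 4 conditions were siControl and siBach1 cells, each at day 0 and at day 2, with 3 arrays per condition. siControl was the control siRNA and siBach1 an siRNA against the transcription factor Bach1 (siBach1-2 in the study's methods), so that every sample had been transfected. Cells grew in 10% fetal bovine serum and were moved to 2% horse serum at confluence, 24 h after transfection, and days are counted from this induction. The study asked how silencing of Bach1 affects muscle differentiation, and the comparisons below are of day 2 with day 0 for each siRNA, of siBach1 with siControl on each day, and of the silencing effects on the 2 days. The model is 1 cell line in culture, 1 siRNA against Bach1 was used on these arrays, and the labels do not say whether the 3 replicates were separate cultures, so p-values measure the spread between these samples.

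A myosin heavy chain carries the ATP-splitting head that pulls on actin and the coiled-coil tail that packs into filaments, and each chain binds a pair of light chains. Muscle uses one heavy chain gene after another: Myh3 encodes the embryonic chain, Myh8 the perinatal chain, Myh7 the chain of slow fibres and of the heart ventricle, Myh6 the cardiac alpha chain, and Myh2, Myh1 and Myh4 the chains of the adult fast fibre types IIa, IIx and IIb. Myh11 encodes the smooth muscle chain, and Myh9 and Myh10 encode the non-muscle chains IIA and IIB, which serve cell shape, adhesion and division in most cell types.

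Of the striated muscle members 5 lie side by side on chromosome 11, in the order Myh3, Myh2, Myh1, Myh4 and Myh8, with Myh13 next to Myh8. Myh6 and Myh7 are neighbours on chromosome 14. Myh9 lies on chromosome 15 and Myh11 on chromosome 16, and Myh10 lies on chromosome 11 away from the cluster. The promoter windows of the 5 clustered members are shown here because they are neighbouring genes whose signals differed in size and in detection across the 4 conditions. Each window runs from 250 bases before to 50 bases after the start of the gene in RefSeq (build GRCm38.p6), on the plus strand. The windows are chr11:67078050-67078349 for Myh3, chr11:67276874-67277173 for Myh8, chr11:67199852-67200151 for Myh1, chr11:67237562-67237861 for Myh4 and chr11:67170777-67171076 for Myh2. Capitals mark CANNTG (the E-box bound by MyoD and its relatives), TATAAA and the 14-base run TTCTAATTATATCC, each searched on both strands, with no overlap between the marked matches.
Myh3: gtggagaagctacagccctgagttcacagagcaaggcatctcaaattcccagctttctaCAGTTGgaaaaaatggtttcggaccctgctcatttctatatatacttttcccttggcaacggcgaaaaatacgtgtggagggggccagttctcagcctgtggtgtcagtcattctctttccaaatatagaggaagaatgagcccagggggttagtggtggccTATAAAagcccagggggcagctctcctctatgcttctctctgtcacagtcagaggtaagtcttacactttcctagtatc
Myh8: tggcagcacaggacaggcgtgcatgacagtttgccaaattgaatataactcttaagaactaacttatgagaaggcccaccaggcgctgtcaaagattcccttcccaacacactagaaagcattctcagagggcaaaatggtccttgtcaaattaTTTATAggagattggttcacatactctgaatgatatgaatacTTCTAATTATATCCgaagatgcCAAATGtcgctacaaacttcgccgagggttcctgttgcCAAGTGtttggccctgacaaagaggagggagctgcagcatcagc
Myh1: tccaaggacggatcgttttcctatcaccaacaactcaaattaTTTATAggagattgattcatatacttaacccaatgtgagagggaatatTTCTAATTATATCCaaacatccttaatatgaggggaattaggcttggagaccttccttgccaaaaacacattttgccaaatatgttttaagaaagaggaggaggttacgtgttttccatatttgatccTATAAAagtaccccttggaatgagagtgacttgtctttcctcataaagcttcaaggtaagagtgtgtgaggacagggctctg
Myh4: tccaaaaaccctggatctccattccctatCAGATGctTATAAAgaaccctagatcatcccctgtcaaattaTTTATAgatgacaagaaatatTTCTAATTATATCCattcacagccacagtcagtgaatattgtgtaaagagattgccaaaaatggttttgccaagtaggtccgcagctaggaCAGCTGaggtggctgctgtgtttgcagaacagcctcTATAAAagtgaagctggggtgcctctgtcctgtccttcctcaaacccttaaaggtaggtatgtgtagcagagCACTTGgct
Myh2: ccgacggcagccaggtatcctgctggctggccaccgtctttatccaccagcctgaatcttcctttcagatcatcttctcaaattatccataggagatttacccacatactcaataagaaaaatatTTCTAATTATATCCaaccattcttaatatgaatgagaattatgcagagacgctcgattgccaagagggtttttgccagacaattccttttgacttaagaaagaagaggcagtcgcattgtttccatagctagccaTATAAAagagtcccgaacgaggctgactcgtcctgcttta
The run of 14 bases was the longest found in all of the Myh1, Myh2, Myh4 and Myh8 windows. It was present in 4 of 32851 promoter windows (0.0122%), which were those of these 4 genes, and was not in the window of Myh3. Its presence in these 4 was fixed by the way it was picked. It began 160 bases before the start in Myh1, 158 in Myh4, 125 in Myh2 and 54 in Myh8. CANNTG was present once in the Myh3 window, 191 bases before the start, and in 72.3% of all windows, while the Myh1 and Myh2 windows held no match. TATAAA was present in 13.6% of all windows and in each of the 5 shown, at 29 bases before the start in Myh3 and 96 in Myh8. The antioxidant-type motif TGACNNNGC, found in 12.4% of all windows, was present among the members only in Myh8, 168 bases before the start, and TGANTCA, found in 7.81%, only in Myh1, 196 bases before it. CATTCC was found in 14.7% of all windows. The MEF2-type motif of CTA and TAG with NNNN between them was found in 3.69% of all windows and had no match in the windows of the 9 members searched. These matches describe letters in a window and were not tested as binding sites.

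Signals are given as log2 of the scanner's processed signal minus the 75th percentile of the same array, so that 0 is the 75th percentile and a step of 1 is a doubling. The level of one probe is not set against the level of another, since probes differ in brightness. On a given array 47.6% to 58.9% of all probes were detected, that is well above background by the scanner's rule. At day 0 Bach1 itself stood at 1.69 ± 0.12 with siControl and -0.09 ± 0.23 with siBach1, and at 2.56 ± 0.01 and 0.59 ± 0.05 at day 2 (SD, n = 3). Its difference between siRNAs was -1.77 at day 0 and -1.97 at day 2 (limma, adjusted p = 1.23e-05 and 1.36e-05). Replicates 1 and 2 of all conditions were on 1 slide and replicate 3 on another, and each condition kept its own column on both slides, so that condition and place on a slide cannot be told apart.

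Detection differed between members and between probes of the same member. Of the 30 probes, 13 were detected on every one of the 12 arrays and 5 on none. The probes detected everywhere covered Myh3, Myh8, Myh7, Myh1, Myh4, Myh11, Myh9 and Myh10. Probes of Myh3, Myh7, Myh6 and Myh4 went from 0 or 1 of 3 siControl arrays at day 0 to all 3 at day 2. The best detected probe of Myh2, the IIa chain, reached 2 of 3 siControl arrays at day 2, and its other probes reached 1 array and none. Of the 30 probes, 19 carried an accession matched to a RefSeq transcript of the gene, 10 carried another accession and 1 carried none, and probes of a gene are kept apart here.

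**Figure D1:**
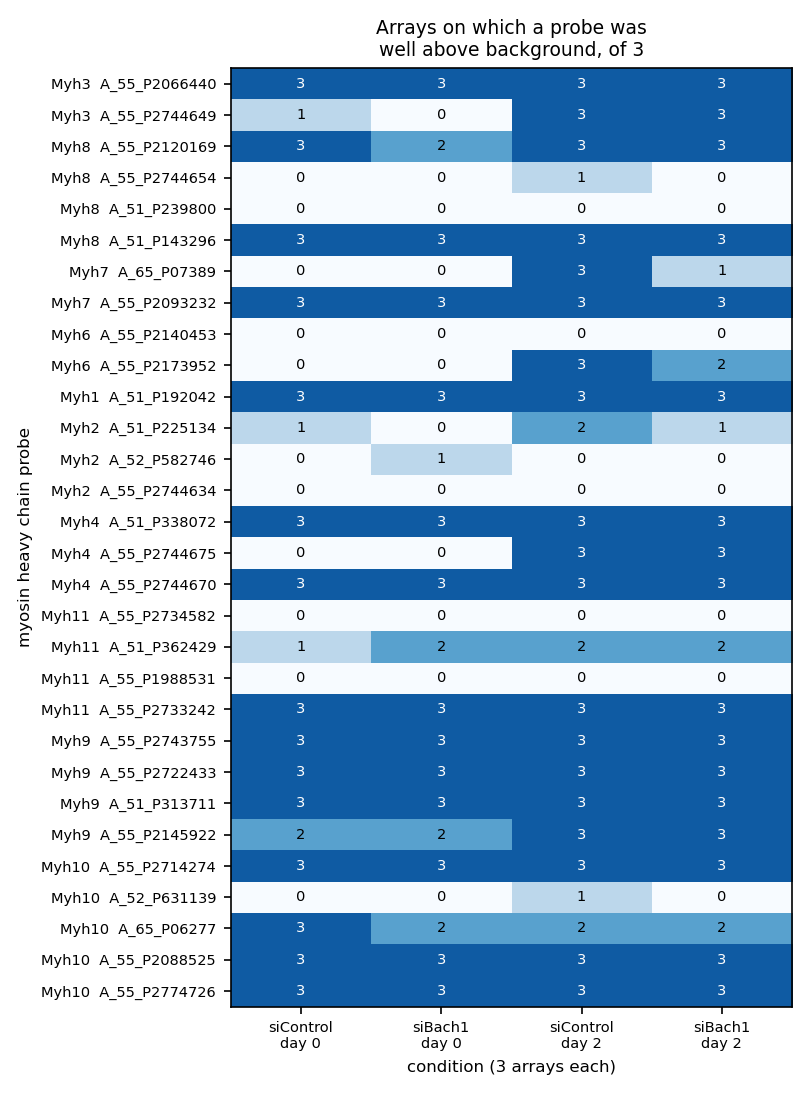
Number of arrays, of 3 in each condition, on which each of the 30 myosin heavy chain probes (rows) was well above background by the scanner's own rule; columns are the 4 conditions. Probes of Myh3, Myh7, Myh6 and Myh4 go from 0 or 1 siControl arrays at day 0 to 3 at day 2, while most probes of Myh9 and Myh10 are at 3 throughout.

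Among the developmental chains, Myh3 rose from day 0 to day 2 on both of its tested probes. Its brighter probe (A_55_P2066440) read 3.65, 3.03 and 2.84 in siControl cells at day 0 and 8.58, 8.47 and 8.49 at day 2. In siBach1 cells it read 3.34, 2.57 and 2.41 at day 0 and 8.21, 8.18 and 7.84 at day 2. All day 2 arrays lay far above all day 0 arrays, and at day 2 all siBach1 arrays lay below all siControl arrays. The rise was 40.4-fold in siControl cells (log2 difference 5.34, 95% CI 4.77 to 5.90, adjusted p = 1.22e-07) and 39.5-fold in siBach1 cells (5.30, adjusted p = 1.37e-07) by limma. In order of level the conditions ran from siControl day 2 through siBach1 day 2 and siControl day 0 to siBach1 day 0, and the siRNAs did not differ past the threshold on either day.

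The dimmer Myh3 probe (A_55_P2744649) read -4.81, -6.10 and -6.31 in siControl cells at day 0, where 1 of 3 arrays was well above background, and 0.47, 0.56 and 0.31 at day 2. In siBach1 cells it read -5.51, -6.16 and -5.97 at day 0, with no array well above background, and -0.36, -0.27 and -0.82 at day 2. It rose with the day for both siRNAs (adjusted p = 3.06e-07 in siControl, 7.47e-07 in siBach1), by at least 14.9-fold in siBach1 cells. Such a lower bound sets the mean of the bright condition against the lowest signal that still counted as well above background on the arrays of the dim one, or against the probe's own signal there if that was higher. Both probes of Myh3 therefore moved the same way.

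Myh8, the perinatal chain, also rose. Its brighter probe (A_51_P143296) read 1.04, 0.04 and 0.61 in siControl cells at day 0 and 4.94, 4.71 and 4.78 at day 2, against 0.72, -0.21 and 0.38 and then 4.07, 3.55 and 3.79 in siBach1 cells. The day 0 values of the siRNAs overlapped, whereas every siBach1 array at day 2 was below every siControl array. The rise was 19.0-fold in siControl cells (4.25, adjusted p = 8e-07) and 11.4-fold in siBach1 cells (3.51, adjusted p = 2.6e-06) by limma. A second Myh8 probe (A_55_P2120169) read -3.63, -3.88 and -3.88 at day 0 and -2.89, -2.03 and -3.44 at day 2 in siControl cells. Its difference of 1.01 passed (limma, adjusted p = 0.0352), but not without siControl day 0 replicate 1, 2 or 3 or siControl day 2 replicate 1 or 2 (adjusted p from 0.0548 to 0.132). In siBach1 cells its difference was 0.60 (adjusted p = 0.187). The remaining Myh8 probes were well above background on 1 array and on none.

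Of the slow and cardiac chains, Myh7 rose nearly as much as Myh3. Its brighter probe (A_55_P2093232) read 0.20, -0.64 and -0.66 in siControl cells at day 0 and 4.77, 4.79 and 4.72 at day 2. In siBach1 cells the same probe read -0.72, -1.20 and -1.46 and then 4.14, 3.91 and 3.85. On each day every siBach1 array lay below every siControl array. The rise was 34.9-fold in siControl cells (5.13, adjusted p = 1.03e-07) and 34.2-fold in siBach1 cells (5.09, adjusted p = 1.15e-07) by limma.

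The dimmer Myh7 probe (A_65_P07389) read -7.45, -6.80 and -6.43 in siControl cells at day 0 and -3.13, -2.69 and -3.44 at day 2. It was not well above background at day 0 and rose by at least 2.94-fold in siControl cells (limma, adjusted p = 2.9e-05). In siBach1 cells it read -7.14, -6.59 and -6.09 and then -3.74, -4.35 and -5.35. There 0 of 3 arrays at day 0 and 1 of 3 at day 2 were well above background, so that no fold is given, although the fitted difference had an adjusted p of 0.00147 in limma.

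Myh6, the cardiac alpha chain, was measured by 1 probe (A_55_P2173952), which read -5.36, -5.32 and -5.02 in siControl cells at day 0 and -3.54, -3.73 and -3.08 at day 2. In siBach1 cells it read -5.56, -5.61 and -4.69 and then -4.30, -4.41 and -4.21. No day 0 array was well above background, and at day 2 all 3 siControl arrays and 2 of 3 siBach1 arrays were. The rise was at least 2.29-fold in siControl cells (adjusted p = 0.000122) and at least 1.05-fold in siBach1 cells, over the mean of arrays of which 2 of 3 were measured (adjusted p = 0.00581), by limma. The other Myh6 probe was detected on no array. Of 8 markers of heart muscle 6 were tested, and 2 rose and 1 fell at day 2 in siControl cells, while 3 rose and 1 fell in siBach1 cells. Their summed signal, relative to the 75th percentile, was 16.8 to 18.5 in siControl cells at day 0 and 172 to 187 at day 2, and 12.5 to 14.3 and then 132 to 160 in siBach1 cells. Most of this sum was Tnnt2, a troponin that skeletal muscle cells also make early, which rose by 3.58 in siControl cells (limma, adjusted p = 1.06e-08). Without it the sum was 3.13 to 3.46 and then 3.05 to 3.28 in siControl cells and 2.50 to 2.64 and then 3.94 to 4.04 in siBach1 cells, and the median day difference of the 6 genes was -0.02 in siControl and 0.52 in siBach1 cells. The cardiac troponin Tnni3, detected on 2 of 3 day 0 arrays for each siRNA, had day differences of 2.80 and 4.32. Of the 6 day differences 3 were negative in siControl and 2 in siBach1 cells. Myl7, the atrial light chain, was well above background on no array, and the part of the other markers in the Myh6 result was not tested.

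The adult fast chains differed in detection. Myh1, the IIx chain, had 1 probe (A_51_P192042), which read 0.95, -0.13 and 0.43 in siControl cells at day 0 and 4.57, 4.42 and 4.66 at day 2. In siBach1 cells it read 0.67, -0.30 and 0.41 and then 3.57, 2.97 and 3.52. The siRNAs overlapped at day 0 and were apart at day 2. The rise was 17.6-fold in siControl cells (4.13, adjusted p = 1.72e-06) and 8.56-fold in siBach1 cells (3.1, adjusted p = 1.07e-05) by limma.

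Myh4, the IIb chain, had 3 probes that disagreed. The brightest (A_51_P338072) read -0.59, -1.54 and -0.69 in siControl cells at day 0 and 1.53, 1.01 and 1.18 at day 2, and in siBach1 cells -1.32, -2.81 and -1.52 and then 1.25, 0.73 and 0.40. It rose for both siRNAs (limma, 2.19 with adjusted p = 0.00088 in siControl and 2.68 with adjusted p = 0.000207 in siBach1). The second (A_55_P2744675) read -5.98, -6.09 and -6.13 and then -2.17, -2.44 and -2.44 in siControl cells, and -5.91, -6.58 and -5.94 and then -3.10, -3.74 and -3.39 in siBach1 cells. It was not well above background on any day 0 array and rose by at least 4.89-fold in siControl and at least 1.95-fold in siBach1 cells (limma, adjusted p = 2.4e-07 and 1.69e-06). The remaining Myh4 probe (A_55_P2744670) was detected on all 12 arrays and passed in no comparison, with day differences of -0.32 in siControl and 0.12 in siBach1 cells. The direction given for Myh4 therefore holds for 2 of its 3 probes.

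Myh2 was not tested. Its best detected probe (A_51_P225134) read -5.07, -6.79 and -6.44 in siControl cells at day 0 and -3.65, -4.44 and -3.55 at day 2, and -5.53, -4.74 and -4.81 and then -4.62, -6.36 and -5.61 in siBach1 cells. The siControl arrays did not overlap between days, and the siBach1 arrays did. With no filter on dim probes the day difference of this probe was 2.22 in siControl cells (limma, adjusted p = 0.0117) and -0.50 in siBach1 cells (adjusted p = 0.659), mostly from signals that were not well above background.

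**Figure D2:**
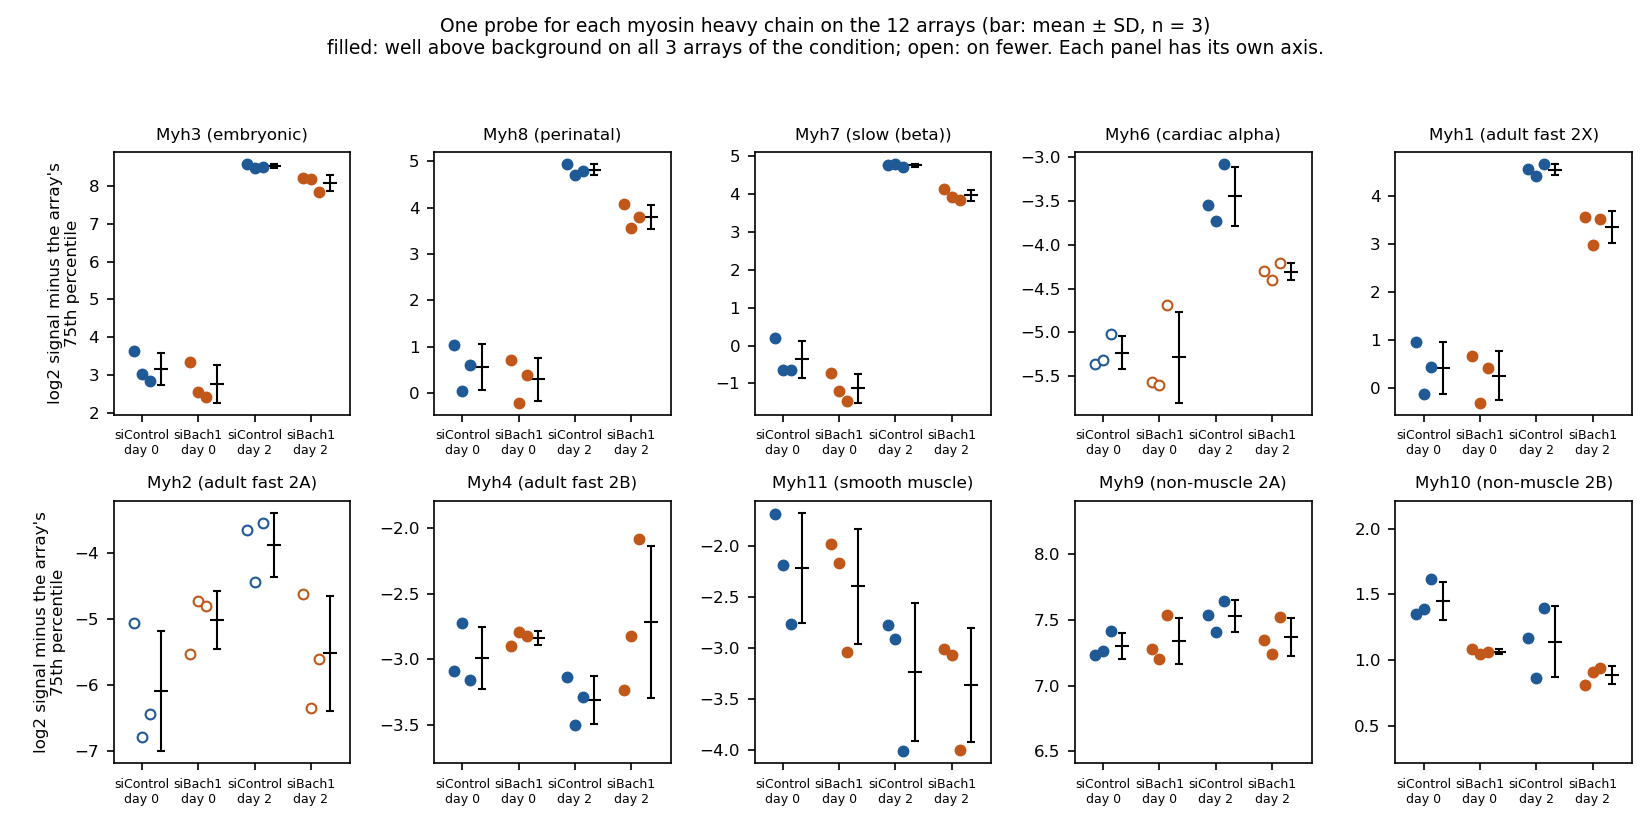
log2 signal minus the array's 75th percentile (vertical axes, 1 scale per panel) of 1 probe for each of the 10 myosin heavy chains in the 4 conditions, 1 point per array, with mean and SD (n = 3); open points mark conditions in which not all 3 arrays were well above background. Myh3, Myh8, Myh7 and Myh1 are higher on every day 2 array than on any day 0 array, the Myh4 panel shows the probe that passed in no comparison, and Myh9 and Myh10 span about 1 unit or less.

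Of the smooth muscle and non-muscle chains, Myh10 was the one with probes that passed between days. Myh11, the smooth muscle chain, was tested by 1 probe (A_55_P2733242), which read -1.69, -2.19 and -2.77 in siControl cells at day 0 and -2.78, -2.91 and -4.01 at day 2, and -1.99, -2.17 and -3.04 and then -3.01, -3.07 and -4.0 in siBach1 cells. Replicate 3 was the lowest in every condition. Its day difference was -1.02 in siControl cells (95% CI -1.97 to -0.07, limma adjusted p = 0.0676) and -0.96 in siBach1 cells (adjusted p = 0.0798). With replicate as a block both differences passed (adjusted p = 4.31e-05 and 5.54e-05). The accession listed for this probe was not matched to a RefSeq transcript. A Myh11 probe with a matched accession (A_51_P362429) was well above background on 7 arrays and did not enter the tests. With no filter on dim probes its day differences had the opposite sign. They were 0.44 in siControl cells (limma, adjusted p = 0.26) and 0.14 in siBach1 cells (adjusted p = 0.818). The remaining Myh11 probes were detected on no array. Of 6 smooth muscle markers 5 were tested, and 4 rose and none fell for either siRNA at day 2, among them Acta2 (1.50, adjusted p = 0.000326) and Tagln (1.44, adjusted p = 0.00951). The summed signal of these markers was 185 to 279 in siControl cells at day 0 and 534 to 670 at day 2, and their part in the Myh11 result was not tested.

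Myh9, the non-muscle IIA chain, passed with none of its 4 probes in any comparison. Its brightest probe (A_51_P313711) read 7.23, 7.26 and 7.42 in siControl cells at day 0 and 7.54, 7.41 and 7.65 at day 2, and 7.28, 7.20 and 7.53 and then 7.35, 7.24 and 7.52 in siBach1 cells. The 4 conditions overlapped. Its day difference was 0.23 in siControl cells (95% CI -0.03 to 0.49, adjusted p = 0.127) and 0.03 in siBach1 cells (-0.23 to 0.29, adjusted p = 0.836) by limma. The other Myh9 probes had day differences of 0.39, 0.58 and 0.44 in siControl cells. With replicate as a block, the brightest probe passed in siControl cells (adjusted p = 0.0121), and A_55_P2722433 passed for both siRNAs (0.58 in each, adjusted p = 0.021 in siControl and 0.0205 in siBach1).

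Myh10, the non-muscle IIB chain, fell on 2 of its 4 tested probes in siControl cells. Its remaining probe (A_52_P631139) was well above background on 1 array and was not tested. Its brightest probe (A_55_P2774726) read 3.59, 3.77 and 3.54 in siControl cells at day 0 and 2.97, 2.72 and 3.17 at day 2, and 3.31, 3.13 and 2.94 and then 2.82, 2.76 and 2.75 in siBach1 cells. All day 2 arrays were below all day 0 arrays of the same siRNA, and all siBach1 arrays at day 0 were below all siControl arrays. The fall was 1.60-fold in siControl cells (-0.68, adjusted p = 0.00121) and 1.28-fold in siBach1 cells (-0.35, adjusted p = 0.041) by limma. The call in siBach1 cells was lost in 7 of 12 fits that left out 1 array (adjusted p from 0.0551 to 0.149), namely without siBach1 day 0 replicate 1 or 2, siBach1 day 2 replicate 1, 2 or 3, siControl day 0 replicate 1 or siControl day 2 replicate 1.

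A second Myh10 probe (A_55_P2714274) read -2.93, -3.09 and -2.74 and then -3.34, -3.75 and -3.32 in siControl cells. It fell by 0.55 on the log2 scale (limma, adjusted p = 0.0252), but not past the threshold without siControl day 0 replicate 1 or 3 or siControl day 2 replicate 2 (adjusted p from 0.057 to 0.0986). Another probe (A_55_P2088525) read 1.35, 1.39 and 1.62 in siControl cells at day 0 and 1.17, 0.86 and 1.39 at day 2, and 1.09, 1.04 and 1.06 and then 0.81, 0.91 and 0.94 in siBach1 cells. Its day difference in siControl cells was -0.31 (adjusted p = 0.063, or 0.0325 with replicate as a block), and that of A_65_P06277 was -0.73 (adjusted p = 0.183, or 0.0463 with the block).

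Over the family, some or all tested probes of Myh3, Myh8, Myh7, Myh6, Myh1 and Myh4 rose with differentiation, and some of Myh10 fell. In siControl cells 10 of 20 probes rose and 2 fell from day 0 to day 2, where 24.6% of all tested probes rose and 28.7% fell. The 10 probes were both tested probes of Myh3, Myh8 and Myh7, 2 of Myh4, and those of Myh6 and Myh1, and the 2 that fell were of Myh10. The dimmer Myh3 and Myh7 probes, the Myh6 probe and the Myh4 probe A_55_P2744675 passed the detection filter through day 2 conditions alone. The filter therefore favoured a rise of these probes. Among probes well above background on all arrays, 5 of 13 member probes rose in siControl cells, against 6022 of all 24802. In siBach1 cells 9 probes passed as higher, the dimmer Myh7 probe with 1 detected day 2 array among them, and 1 fell, against 23.8% and 32.3% of all probes, the dimmer Myh8 probe and a Myh10 probe being those that passed with siControl alone. The differences between the siRNAs in these day effects did not pass (adjusted p = 0.713 and 0.74). The median log2 difference of the 20 probes was 0.80 with siControl and 0.59 with siBach1, against 0.00 and -0.07 over all tested probes. With probes that were not detected on one side set at their lower bound, or at 0 where no fold could be given, it was 0.80 and 0.23. The probes of Myh3, Myh6 and Myh1, both passing probes of Myh4 and the brighter probes of Myh7 and Myh8 passed for both siRNAs in each of the 12 fits that left out 1 array. The siControl and siBach1 comparisons rest on different arrays of the same fit. As these are bulk samples, fewer cells of a type and less RNA per cell cannot be told apart in any of these values.

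**Figure D3:**
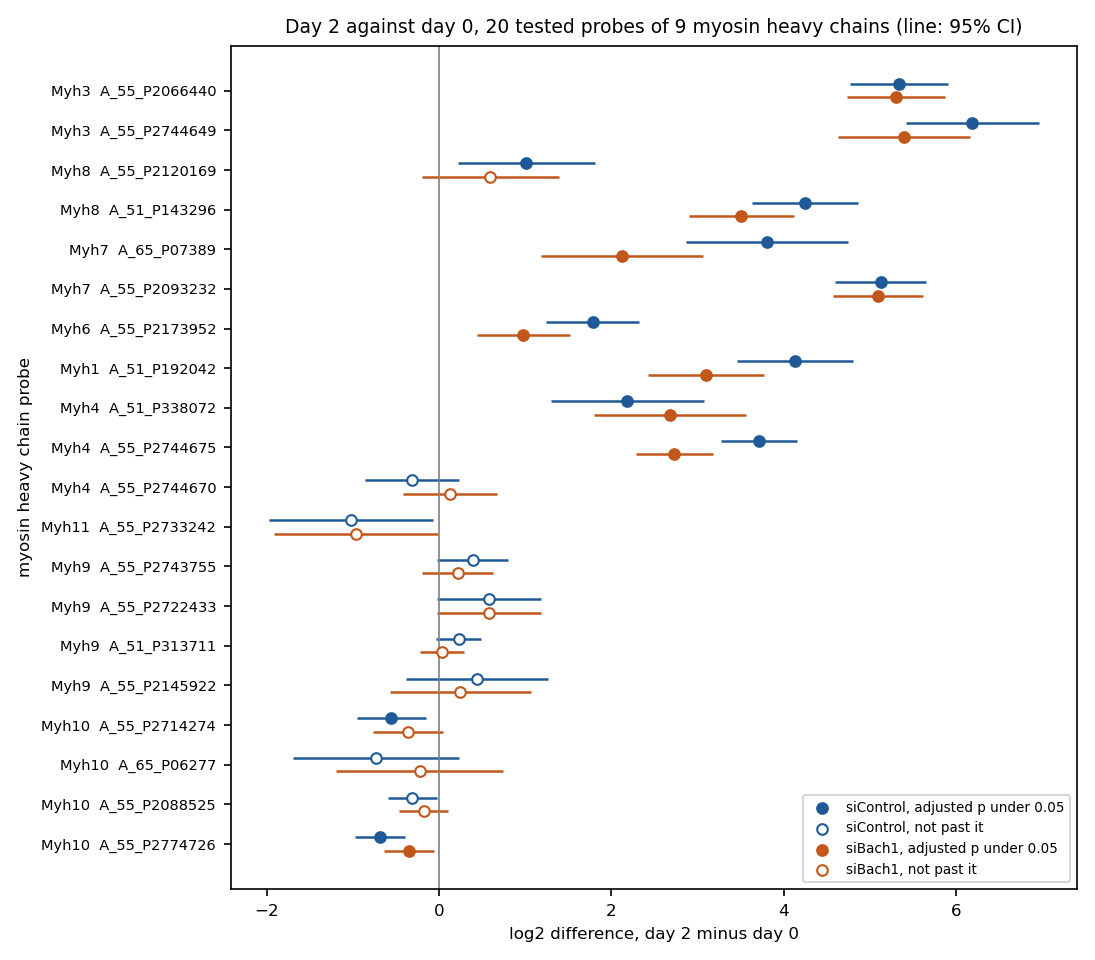
log2 difference of day 2 minus day 0 (horizontal axis) with its 95% confidence interval for the 20 tested probes of 9 myosin heavy chains, drawn separately for the siRNAs; filled points have an adjusted p under 0.05. Probes of Myh3 and Myh7 reach differences above 5, whereas those of Myh9 lie between 0.03 and 0.58 and those of Myh10 below 0. The points of probes not detected at day 0, of Myh6, Myh7, Myh4 and Myh3, are fitted values and not measured sizes.

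Before differentiation 1 member probe passed between the siRNAs. At day 0 no member probe was higher and 1 of 20 was lower in siBach1 than in siControl cells, where 8.80% of all tested probes were higher and 8.32% lower, so the share of the members was not above that of all probes. At an unadjusted p under 0.05, 0 were higher and 4 lower, against 18.2% and 12.9% of all tested probes. The probe that passed was the brightest of Myh10, by 1.42-fold (-0.51, 95% CI -0.80 to -0.22, limma adjusted p = 0.024), and it did not pass without siControl day 0 replicate 1 or 2 or siBach1 day 0 replicate 2 or 3 (adjusted p from 0.058 to 0.093). The Myh10 probe A_55_P2088525 was lower by a similar size without passing (-0.39, 95% CI -0.67 to -0.10, adjusted p = 0.0642), as was the brighter probe of Myh7 (-0.76, 95% CI -1.29 to -0.24, adjusted p = 0.0517) and the brightest of Myh4 (-0.94, adjusted p = 0.137). With replicate as a block all 3 of these passed (adjusted p = 0.03, 0.0106 and 0.0334), which brings the count to 4 of 20, where 11.3% of all tested probes were lower with the block. In 3 probes all siBach1 arrays lay below all siControl arrays, which was so for 15.4% of all tested probes. The median difference of the 20 probes was -0.16, against 0.09 over all probes.

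After 2 days of differentiation a probe each of the perinatal, the cardiac alpha and the fast IIx and IIb chains was lower in siBach1 cells. No probe was higher and 4 of 20 were lower, where 5.75% of all tested probes were higher and 6.26% lower. At an unadjusted p under 0.05, 1 was higher and 7 were lower, against 12.7% and 14.6% of all tested probes. Myh1 was lower by 2.29-fold (-1.19, SE 0.30, 95% CI -1.87 to -0.52, limma adjusted p = 0.0296). Myh4 was lower by 2.09-fold at the probe A_55_P2744675 (-1.06, 95% CI -1.50 to -0.62, adjusted p = 0.00835), while its other probes gave -0.45 (adjusted p = 0.526) and 0.59 (adjusted p = 0.148). Myh8 was lower by 2.01-fold at its brighter probe (-1.01, 95% CI -1.62 to -0.40, adjusted p = 0.0402), and its second probe gave -0.20 (adjusted p = 0.791). Myh6 was lower by 0.86 on the log2 scale (95% CI -1.40 to -0.32, adjusted p = 0.046), from 3 detected siControl and 2 detected siBach1 arrays. The Myh6 probe passed the detection filter through siControl day 2 alone, so that the filter favoured this direction and its place among the 4 is not independent of it.

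The other striated muscle members had lower means in siBach1 cells at day 2 that did not pass. Both Myh7 probes were lower on every siBach1 array than on any siControl array, by -0.80 (95% CI -1.32 to -0.27, adjusted p = 0.0559) and -1.39 (adjusted p = 0.0595), the latter with 1 of 3 siBach1 arrays detected. Myh3 gave -0.44 (95% CI -1.0 to 0.13, adjusted p = 0.31) at its brighter and -0.93 (adjusted p = 0.112) at its dimmer probe, again with no overlap between siRNAs. With replicate as a block the brighter Myh7 probe (adjusted p = 0.0119) and the dimmer Myh3 probe (adjusted p = 0.0456) passed. Over all 29664 tested probes, 3429 were lower with the block, against 1858 without it. In all, 8 of the 20 probes had every siBach1 array below every siControl array, against 17.1% of all tested probes. Among the 8, the probe of Myh6 and the dimmer probe of Myh7 had entered the tests through siControl day 2 alone. Of the non-muscle chains, the brightest Myh9 probe gave -0.16 (95% CI -0.42 to 0.10) and the brightest Myh10 probe -0.18 (95% CI -0.47 to 0.11). The median difference of the 20 probes was -0.29, against -0.01 over all probes.

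Among the calls at day 2, that of Myh4 held in each of the 12 fits that left out 1 array. That of Myh1 held in 6 and was lost without any of the 6 day 2 arrays (adjusted p from 0.0548 to 0.0961). That of Myh8 held in 5 and was lost without any of the 6 day 2 arrays or siControl day 0 replicate 3 (adjusted p from 0.0553 to 0.12). That of Myh6 held in 3, without siControl day 2 replicate 2 or siBach1 day 0 replicate 2 or 3, and was lost in the others (adjusted p from 0.0513 to 0.136). Within the slides, the difference was -1.22 on the first and -1.14 on the second for Myh1, -1.01 and -1.0 for Myh8, -1.12 and -0.95 for Myh4 and -0.72 and -1.14 for Myh6.

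**Figure D4:**
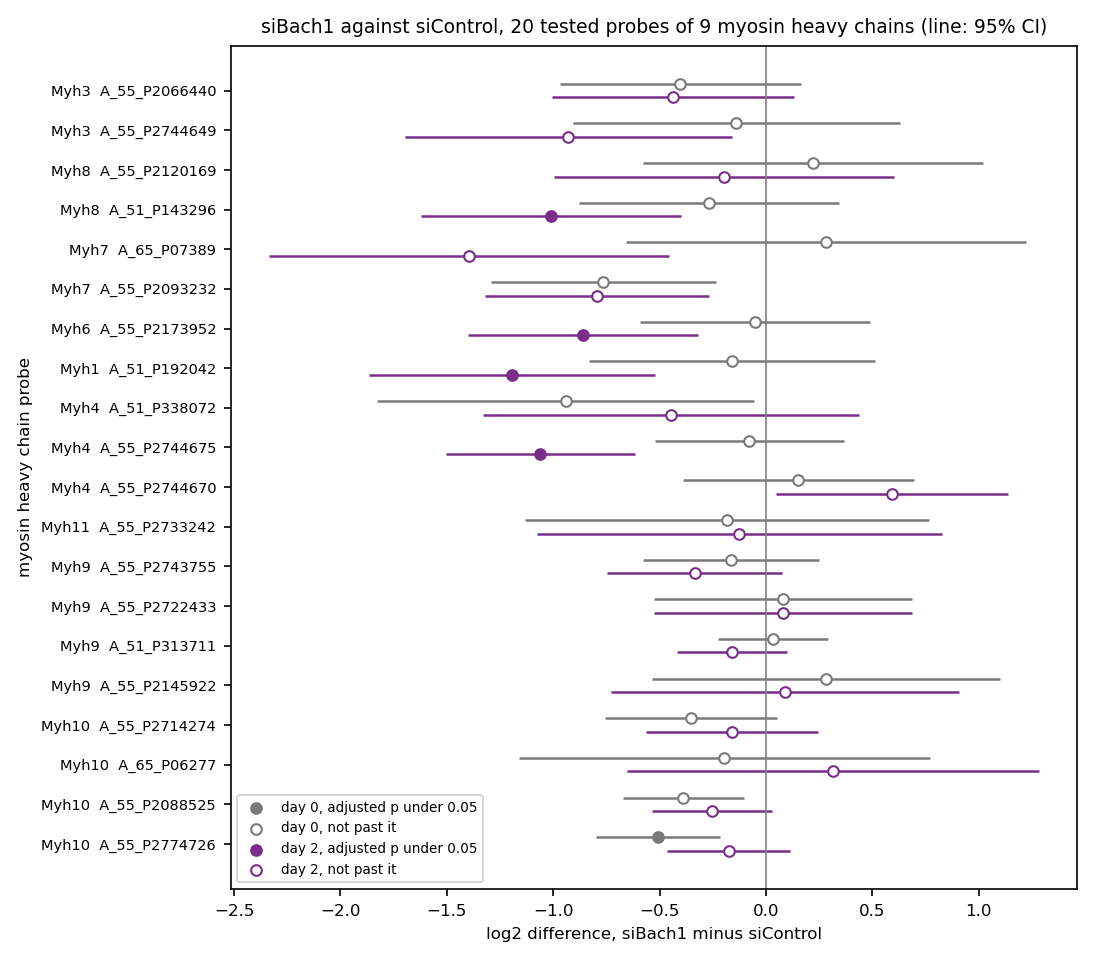
log2 difference of siBach1 minus siControl (horizontal axis) with its 95% confidence interval for the 20 tested probes of 9 myosin heavy chains, at day 0 and at day 2; filled points have an adjusted p under 0.05. The day 2 points of Myh1, Myh8, Myh6 and 1 Myh4 probe and the day 0 point of 1 Myh10 probe are filled, and all of them lie below 0.

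Whether silencing acted differently on the 2 days was tested as the difference between its effects, and no member probe passed, where 2.39% of all tested probes were higher and 2.20% lower. At an unadjusted p under 0.05, 0 were higher and 4 were lower, against 8.89% and 12.9% of all tested probes. The 4 were Myh1 (-1.04, 95% CI -1.98 to -0.09, adjusted p = 0.191), the Myh4 probe A_55_P2744675 (-0.98, 95% CI -1.61 to -0.36, adjusted p = 0.0773), Myh6 (-0.81, adjusted p = 0.207) and the dimmer Myh7 probe (-1.68, adjusted p = 0.137), by limma. With replicate as a block 4 probes passed, which were those of Myh1 (adjusted p = 0.0263), Myh4 (adjusted p = 0.0189), Myh6 (adjusted p = 0.0402) and Myh8 (-0.74, adjusted p = 0.0451, or 0.305 without the block), where 7.86% of all tested probes were lower with the block. Myh6, the dimmer Myh7 probe and this Myh4 probe were detected on 0 of 6 day 0 arrays, so that their silencing effect at day 0 was not measured and these values rest on signals near background. For the brighter probes of Myh3 and Myh7 the differences between the effects on the 2 days were -0.03 (95% CI -0.84 to 0.77) and -0.03 (95% CI -0.78 to 0.71).

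Comparing members on the same array removes what all probes of an array share. For 5 pairs the difference between members was tested for an effect of day within siRNA and of siRNA within day, by an exact two-sided permutation test over 400 relabellings, whose smallest p is 0.005, with adjustment over 10 tests. Each member was represented by the probe detected on most arrays, with ties settled by the smaller spread within conditions, which for Myh10 was A_55_P2088525. From day 0 to day 2 Myh3 gained 1.44 on Myh8 and 1.70 on Myh1 (exact p = 0.005, adjusted 0.0125 for each), and 0.21 on Myh7 (exact p = 0.015, adjusted 0.025). Its gain on Myh10 was 5.56 (exact p = 0.005, adjusted 0.0125), and Myh9 gained 0.37 on Myh10 (exact p = 0.01, adjusted 0.02). With siBach1 the difference of Myh3 and Myh7 was larger by 0.36 (exact p = 0.005, adjusted 0.0125) and that of Myh9 and Myh10 by 0.26 (exact p = 0.025, adjusted 0.0357). The siRNA effects on the differences of Myh3 with Myh8 (0.22, exact p = 0.315), Myh1 (0.26, exact p = 0.37) and Myh10 (-0.10, exact p = 0.635), each averaged over both days, did not pass. For Myh8 and Myh1 these averages join effects of opposite sign. The mean of Myh3 minus Myh1 was 2.76 with siControl and 2.51 with siBach1 at day 0. At day 2 it was 3.96 with siControl and 4.72 with siBach1. The mean of Myh3 minus Myh8 was likewise lower with siBach1 at day 0 and higher at day 2. The siRNA effect on each day alone was not tested for these pairs. A shift in such a difference shows unequal change of a pair and not which member changed.

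**Figure D5:**
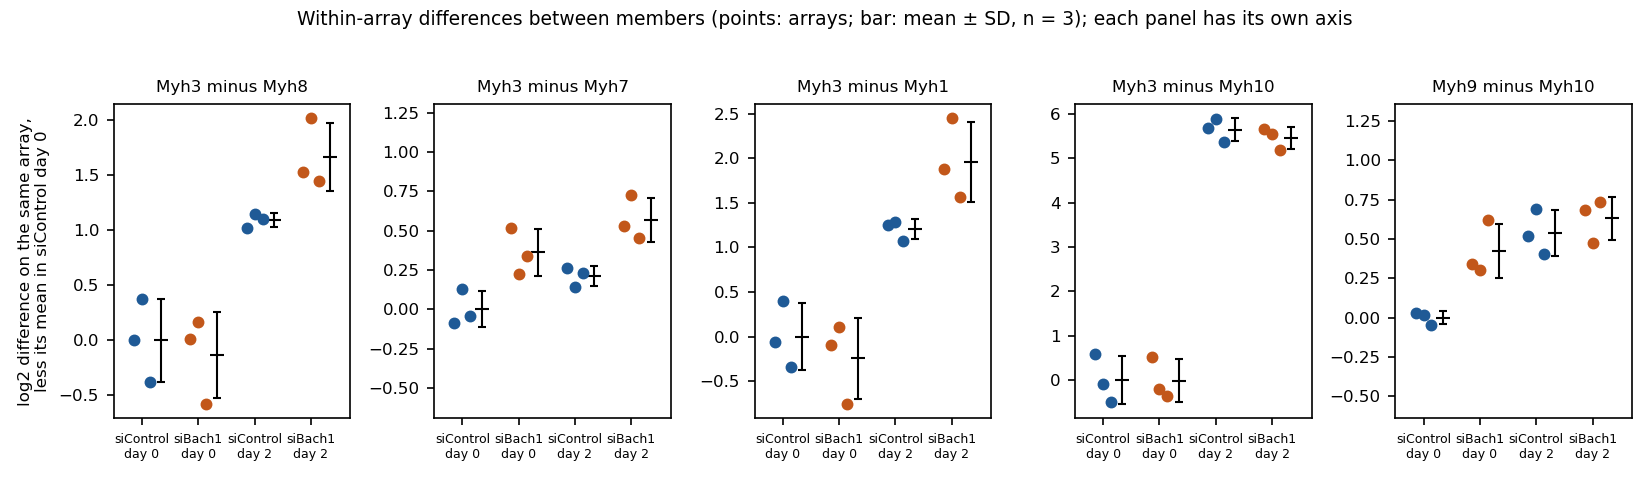
Difference between the log2 signals of a pair of myosin heavy chains on the same array, minus its mean in siControl day 0 (vertical axes, 1 scale per panel), 1 point per array with mean and SD (n = 3). The day 2 points of Myh3 minus Myh8, Myh1 and Myh10 lie above all day 0 points, and the siBach1 points of Myh3 minus Myh7 lie above the siControl points of the same day.

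Heavy chains outside the chosen 10 and the partners of myosin were counted from fixed lists, with 1 probe for each gene, against a median over 15642 genes of 0.01 for the day effect in siControl cells and -0.03 for the siBach1 effect at day 2. Of these genes 27.7% rose and 30.0% fell between days in siControl cells, 26.6% and 33.2% did so in siBach1 cells, and at day 2 6.37% were higher and 7.40% lower in siBach1 cells. At day 0 10.1% were higher and 9.83% lower in siBach1 cells. For the difference of the siBach1 effect between the days the shares were 3.07% higher and 2.74% lower. All 3 of the other heavy chains that could be tested rose with differentiation: Myh13, the extraocular chain next to Myh8 (5.90, adjusted p = 4.99e-06, with 1 of 3 day 0 arrays detected), Myh7b, a slow-type chain (4.71, adjusted p = 4.23e-06, with 2 of 3 detected), and Myh14, the non-muscle IIC chain (1.57, adjusted p = 5.04e-05). They rose in siBach1 cells too, and none passed between siRNAs on either day. Myh15 was not tested.

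The light chains of the sarcomere rose as well. All 5 tested genes rose in siControl cells, by 3.92 for the fast chain Myl1, 4.26 for Myl3, 4.77 for Mylpf and 6.16 for Myl4, and by at least 88.4-fold for the slow and ventricular chain Myl2, which was detected on no day 0 array, and all 5 rose in siBach1 cells. Myl7 and Myl10 were not tested. At day 2 Myl2 was lower in siBach1 cells (-2.03, adjusted p = 0.00838), and the other 4 lay between -0.37 and -0.03 and did not pass, with a list median of -0.34. All 5 light chains listed as smooth muscle and non-muscle rose in siControl cells with a median of 0.86. Myl6b rose by 3.80, near the sizes of the sarcomere chains, and the others by 0.46 to 1.44. At day 2 3 of them were lower in siBach1 cells, namely Myl9 (-0.63, adjusted p = 0.0453), Myl6b (-0.56, adjusted p = 0.0118) and Myl12a (-0.31, adjusted p = 0.0294). The siBach1 effect was lower at day 2 than at day 0 for Myl6b (-0.97, adjusted p = 0.013), Myl6 (-0.48, adjusted p = 0.044) and Myl12a (-0.46, adjusted p = 0.0451).

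The proteins that hold myosin in the thick filament rose as well. Of 10 genes 8 rose in siControl and 9 in siBach1 cells and none fell, with medians of 4.64 and 4.15. Among those that rose in siControl cells were the myosin binding protein Mybph (6.02, adjusted p = 3.24e-08) and the M-line protein Myom1 (5.60, adjusted p = 1.51e-08). The binding protein Mybpc2 was detected on no siControl array at day 0 and rose by at least 32.8-fold (adjusted p = 2.19e-06), and Ttn, which encodes titin, rose by 3.66 (adjusted p = 5.53e-07). Between siRNAs only Obsl1, a cytoskeletal adaptor, passed at day 2 (0.56, adjusted p = 0.0103). It was lower in siBach1 cells at day 0 (-0.59, adjusted p = 0.00472), and the difference between days passed (1.15, adjusted p = 0.00786).

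Of 8 genes for folding and turnover of myosin, 4 rose and 1 fell in siControl cells. Those that rose were the myosin chaperone Unc45b (6.09, adjusted p = 9.92e-09) and the muscle ubiquitin ligases Trim63 (5.69, adjusted p = 9.92e-09), Trim54 (2.10, adjusted p = 2.87e-08) and Trim55 (2.06, adjusted p = 1e-05), and the chaperone Hsp90aa1 fell (-0.76, adjusted p = 9.72e-05). Unc45b did not pass between siRNAs at day 2 (0.21, adjusted p = 0.479). Hsp90aa1 was lower in siBach1 cells at day 2 (-0.36, adjusted p = 0.0428), and Trim54 was higher in siBach1 cells at day 0 (0.97, adjusted p = 3.83e-05). Of 8 tested light chain kinases and phosphatase subunits, 3 rose and 1 fell in siControl cells, and none passed between siRNAs at day 2.

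Regulators of fibre type and myogenic factors were counted in the same way. Of 14 tested fibre type regulators 11 rose and 2 fell in siControl cells, led by Mef2c (3.32, adjusted p = 4.23e-08), Maf (2.36, adjusted p = 2.67e-07) and Tbx15 (1.65, adjusted p = 3.81e-07). At day 2 in siBach1 cells 3 of them were higher and 1 was lower, the largest being Ppargc1a, a coactivator of oxidative genes (1.13, adjusted p = 0.00326), Maf, a factor linked to fast fibre genes (1.07, adjusted p = 0.00095), and Tead4 (-0.68, adjusted p = 0.00855). Of 4 tested myogenic factors 3 rose with siControl and 1 with siBach1. At day 2 Myog (-0.98, adjusted p = 0.0165) and Myod1 (-0.48, adjusted p = 0.0365) were lower in siBach1 cells, beside the lower probes of Myh1, Myh4, Myh8 and Myh6.

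The labelled cell type was checked on markers. All 8 markers of muscle cells were tested and rose in siControl cells with a median of 3.03, and 7 rose in siBach1 cells. Their summed signal was 246 to 270 with siControl and 293 to 331 with siBach1 at day 0, and 1304 to 1359 and 964 to 1035 at day 2, when Mb (-1.16, adjusted p = 0.041) and Itga7 (-0.34, adjusted p = 0.027) were lower in siBach1 cells. The lower summed signal moved together with the lower probes of Myh1, Myh4, Myh8 and Myh6, and its part in these results was not tested. All 5 tested fibroblast markers rose in both siRNAs, with summed signals of 137 to 141 and then 300 to 351 in siControl cells and 156 to 183 and then 326 to 334 in siBach1 cells, while Thy1 was detected on no array. Of 4 tested adipocyte markers 2 rose and 1 fell in siControl cells, with Adipoq detected on no array. Of 4 tested bone markers 1 rose and 1 fell, and summed signals were 1.27 to 2.27 over all arrays.

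The genes with the pattern most like that of a member were named by Pearson correlation over the 12 arrays, which share their slides, depth and conditions, and are given as a description. For Myh3 they were Mybph (0.999), Itgb1bp2, Tnnt3, Tnni1 and Acta1, and for Myh7 they were Dcn (0.998), Tspan32, Mybph, Rab44 and Acta1. For Myh1 they were Tmem184a (0.994), Rbms3, Nov, Gm1976 and Mb (0.992). For Myh9 they were Fbxw13 (0.937), Ivns1abp, Cyp46a1, Nudcd3 and Apol9b (0.915). Among members the correlation with Myh3 was 0.997 for Myh7, 0.985 for Myh8 and 0.974 for Myh1, whereas Myh1 and Myh8 stood at 0.997 with each other. It was 0.43 for Myh9, -0.46 for Myh10 and -0.65 for Myh11.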

How the data were processed

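Each of 12 C2C12 samples was hybridized to its own one-colour Agilent mouse array. The authors deposited the scanner's processed signal as an intensity after background subtraction, with its flags, and a table of normalized log2 values with probe names. The software was Agilent Feature Extraction, version 9.1 per the submitters' processing notes and 10.7.3.1 per the file headers. Outlier spots (76 to 110 per array) were removed, values were taken to log2, spots of a probe were averaged and the 75th percentile of the array was taken off. Of 56605 probes, 29664 passed the detection filter, which asked for all 3 arrays of some condition to be well above background. They were tested in 1 fit of the 4 conditions in limma 3.58.1 (R 4.3.3), two-sided, with Benjamini-Hochberg adjustment over all tested probes at a threshold of 0.05. Python 3.11, pandas 2.3.3, numpy 2.4.6, scipy 1.17.1 and matplotlib 3.10.9 were used for the rest. The fit was tested on simulated data. The number of arrays limits the precision.

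Every probe of the 10 members is given by name, by its values or by the number of arrays on which it was detected. Of the lists, genes of other heavy chains, light chains, thick filament partners and chaperones are named, and up to 3 genes with the largest passing change of the others. The 5 most correlated genes are named for Myh3, Myh7, Myh1 and Myh9. The members and lists were chosen with earlier results of these data known. RefSeq windows of GRCm38.p6 were matched by symbol for 9 of 10 members, and Myh11 is named only. Probe sequences were not used here, so matches of a probe to related chains were not checked. Residuals of arrays with the same replicate number were correlated in all 18 pairs (0.142 to 0.595, against -0.442 to 0.264 in the other 36). Same-numbered arrays also shared a slide and a row, and a fit with replicate as a block was an alternative. Other alternatives were quantile normalization, the authors' normalized values, normexp (offset 50), other filters, slide as a block, the arrays of a comparison alone, another prior, the methods' t-test, a fold limit of 2, 1 probe per gene, and leaving out each array. Within-slide values were added after the data were seen.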

Additional observations from a re-analysis of the deposited data

How the results depend on the processing

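No called result took the opposite sign under any alternative run. The counts of member probes depended on the settings, and the causes were not tested beyond the smaller number of probes that a stricter filter or 1 probe per gene leaves. For day 2 against day 0 in siControl cells, 5 probes of 13 rose where a probe had to be well above background on all arrays, and 6 of 9 with 1 probe per gene, against 10 of 20. Over all probes 6022 of 24802 and 4455 of 15642 rose under these settings. Of those that fell, in place of 2, there were 0 at a fold limit of 2, 1 with no filter, 1 by the methods' t-test with adjustment, 1 with 1 probe per gene, and 5 with replicate or with slide as a block. With these blocks 9798 and 9826 of all 29664 probes fell, against 8528 in the main fit. In siBach1 cells 5 of 13 rose under the stricter filter, and in place of 1 that fell there were 0 at a fold limit of 2 or with no filter and 2 with quantile normalization, normexp, replicate block, slide block or the unadjusted t-test. Over all probes 5513 of 24802 rose under the stricter filter. In the same order as the settings with 2, 8629, 9625, 10835, 10841 and 9498 of 29664 fell, against 9570 in the main fit. For siBach1 against siControl at day 0, in place of 1 lower probe there were 0 at a fold limit of 2, with no filter, with only the arrays of the comparison or by the t-test after adjustment, 2 by the unadjusted t-test or with 1 probe per gene, 3 with the stricter filter, slide block or a trend and robust prior, and 4 with the replicate block. Of all 29664 probes 2469 were lower in the main fit, 3708 by the unadjusted t-test, 3360 with the slide block, 2575 with the other prior and 3353 with the replicate block. Under the stricter filter 2379 of 24802 were lower, and with 1 probe per gene 1687 of 15642. At day 2, in place of 4, there were 7 with normexp or by the unadjusted t-test and 1 with no filter or by the t-test after adjustment. Of all 29664 probes 1858 were lower in the main fit, 2077 with normexp, 3832 by the unadjusted t-test and 626 by the t-test after adjustment. With no filter 594 of 56605 were. For the difference between days, in place of 0, there were 3 lower with normexp, 4 with the replicate block, 1 with the slide block and 2 by the unadjusted t-test. In the same order 932, 2333, 2503 and 4065 of all 29664 probes were lower, against 653 in the main fit. Leaving out 1 array gave 9 to 11 higher and 1 to 3 lower in siControl cells, 9 to 10 higher and 0 to 3 lower in siBach1 cells, 0 to 2 lower at day 0, 1 to 5 lower at day 2, and 0 to 1 lower for the difference between days. With normexp the siRNA effect on the difference of Myh3 and Myh7 was 0.21 (exact permutation test, adjusted p = 0.107) and that on Myh9 and Myh10 was 0.25 (adjusted p = 0.05), and neither passed. Without 1 array the day effect on Myh3 and Myh7 was 0.17 to 0.25, lost in 3 of 12 fits (without siBach1 day 0 replicate 2 or 3 or siControl day 2 replicate 3), and the siRNA effect on Myh9 and Myh10 was 0.21 to 0.30, lost in 8 of 12 (without any day 0 array, siControl day 2 replicate 3 or siBach1 day 2 replicate 3). The replicate block changed no call of a member probe other than those given beside the results. Of the effects of single probes under the alternatives, 2140 stayed on their side of the threshold, 83 passed anew and 67 no longer passed, and 80 of 100 had the same sign on both slides. Dim probes limit Myh2, Myh6 and the second probes of Myh3, Myh4 and Myh7, for which a day 0 value near background gives a lower bound.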
